A study of Mus musculus with 8 samples.

Results

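The 33 genes described here encode the enzymes and carriers that activate fatty acids to acyl-CoA, move them into mitochondria, and break them down by β-oxidation, together with the thioesterases that cut acyl-CoA back to free fatty acid. They were listed by gene symbol, out of 55487 genes in the table, with earlier results of these data known. J774A.1, a mouse macrophage line, was treated for 24 h with LPS at 1 μg/mL, lipopolysaccharide, an outer membrane component of bacteria that macrophages sense, or with the same dose of LPS plus UDCA at 1 mM, ursodeoxycholic acid, a secondary bile acid, with 4 libraries in each group. All 8 libraries therefore carried LPS, and no library without LPS or with UDCA alone was analysed here. The labels do not say whether the 4 libraries of a group came from separate cultures, so p-values measure the spread between these libraries, which may be technical.

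In β-oxidation, an acyl-CoA synthetase first joins the fatty acid to coenzyme A. Carnitine palmitoyltransferase 1 at the outer mitochondrial membrane, the carnitine carrier and carnitine palmitoyltransferase 2 then bring long chains into the matrix. There each cycle takes a dehydrogenase, a hydratase, a second dehydrogenase and a thiolase, electrons leave through the electron transfer flavoprotein, and very long and branched chains are shortened in peroxisomes by a separate set of enzymes. In macrophages, LPS is known to favour glycolysis and fatty acid oxidation is associated with alternative activation.

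Expression was given as TPM, in which the reads of a gene are divided by its length and then scaled to a common library total. TPM is a share of the RNA pool, so fewer cells of a type and less RNA per cell cannot be told apart. Differences were tested with limma on log2(TPM + 1) over the 11796 genes whose mean reached 1 TPM. Log2 fold changes (LPS + UDCA minus LPS) refer to this scale, and for genes of low level they come out smaller than the true change. Genes with a Benjamini-Hochberg FDR under 0.05 are said to have risen or fallen, and those that also changed at least 2-fold are named as such.

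The deposited columns summed to 973190 to 977485 TPM with LPS and to 958918 to 962737 TPM with LPS + UDCA, and the number of reads behind them is unknown. Of 10 macrophage marker genes 9 were tested, and 4 rose (44.4%) and 5 fell (55.6%), against 40.2% and 32.3% of all genes tested. The summed level of the 10 was 4240 to 4472 TPM with LPS and 2081 to 2338 TPM with LPS + UDCA. Cd68 went from 542 ± 4.48 to 206 ± 2.41 TPM (SD, n = 4) and Adgre1, which encodes F4/80, from 46.6 ± 3.97 to 114 ± 8.24 TPM, while Mrc1, which encodes CD206, stayed at or below 0.01 TPM in every library. The markers of fibroblasts, epithelial cells, hepatocytes, T cells and B cells, 5 genes each, summed to at most 0.52 TPM in any library. All 24 cell cycle genes examined fell, against 32.3% of all genes tested. Their summed level was 1714 to 1798 TPM with LPS and 380.4 to 398.6 TPM with LPS + UDCA. The part of these shifts in the results that follow was not tested.

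Of the 33 genes, 31 passed the filter on low values. Decr1, a reductase for unsaturated fatty acids, was listed at 0 in all 8 libraries. Such a 0 can be a failed estimate, which the table cannot tell from absent expression, so nothing is read from it. Ehhadh, a bifunctional peroxisomal enzyme, reached at most 0.05 TPM. Among the 31, 10 rose and 17 fell with UDCA, which is 32.3% and 54.8%, against 40.2% and 32.3% of all genes tested. A change in either direction was called for 27 of the 31 (87.1%), against 72.5% of all genes. Only Acot2 rose and only Acaa2 fell past 2-fold, so 6.45% of the 31 changed that much against 17.1% of all genes, with 8.71% for higher and 8.44% for lower genes. The median log2 fold change of the 31 was -0.23, beside 0.08 over all genes tested. In 25 of the 31 the groups lay fully apart, 9 higher and 16 lower with UDCA, against 66.8% of all genes tested, 37.0% higher and 29.9% lower. With median-of-ratios scaling 7 lay higher and 18 lower. Full separation by itself fixes the exact 2-sided permutation test over the 70 arrangements of the libraries at p = 0.029, the smallest this design allows. For those 25 the test therefore adds nothing to the lack of overlap. The summed level of all 33 genes was 1428.9 to 1474.2 TPM with LPS and 1330.6 to 1410.3 TPM with LPS + UDCA.

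**Figure D1:**
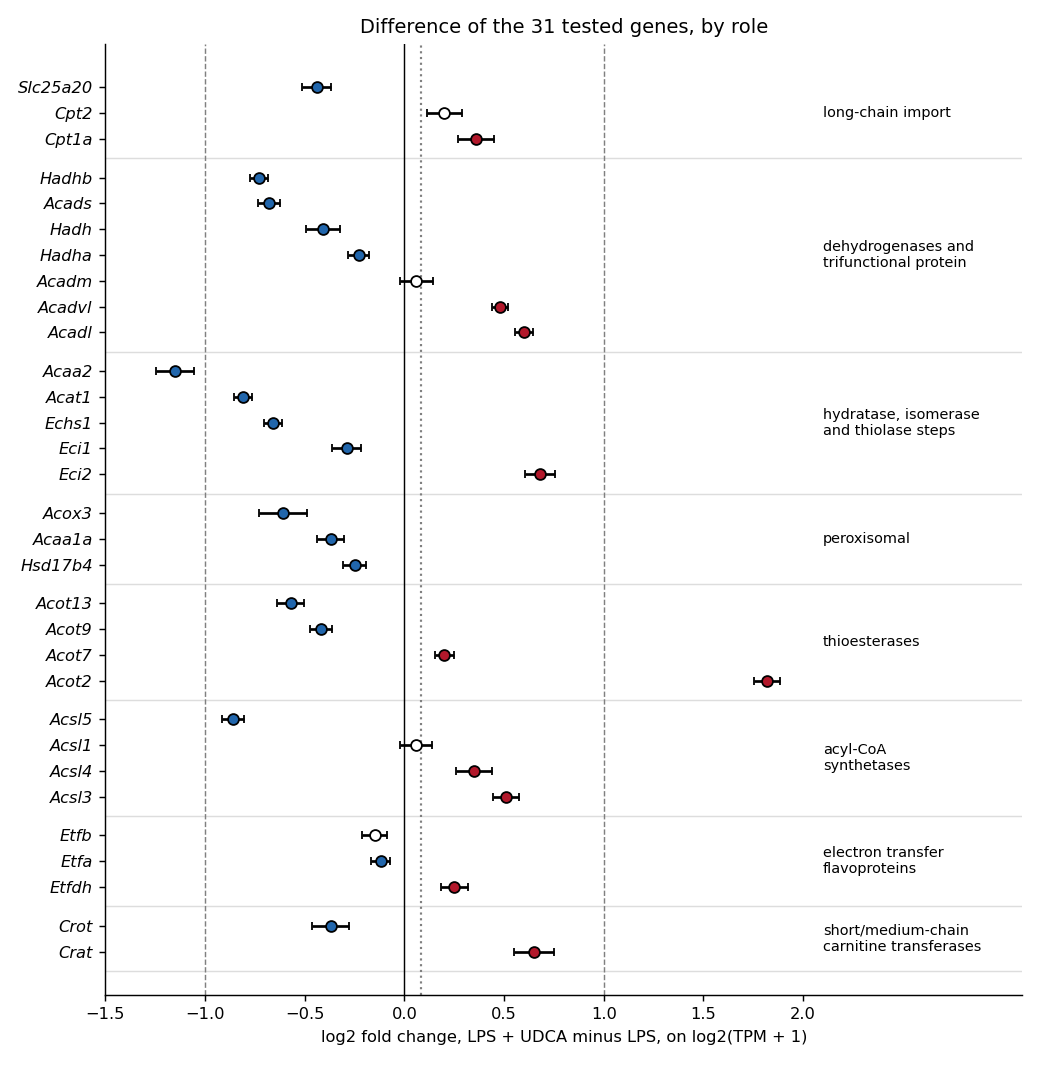
Points give the log2 fold change of each of the 31 tested genes on log2(TPM + 1), LPS + UDCA minus LPS, with bars of 1 standard error from limma, grouped by role. Red points rose and blue points fell at an FDR under 0.05, open points did not pass, dashed lines mark a 2-fold change and the dotted line the median of all genes tested (0.08). Acot2 at 1.82 and Acaa2 at -1.15 lie outside the dashed lines.

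The start regions of 3 genes and the gap of 1 divergent gene pair are shown to give examples of the members described here. Acot2 is the member with the largest rise, Acadl and Acads are dehydrogenases of long and short chains that moved apart, and Hadha and Hadhb, whose products form the same enzyme, start on either side of a short gap. The sequences are from RefSeq on GRCm38.p6, 5′ to 3′, and end at the base before the RefSeq start, except that the Hadha and Hadhb stretch is the whole gap between the gene ends of GENCODE M21. Capitals mark GGGCGG (the GC box) and CCAAT on either strand.
Acot2, chr12:83987611-83987860, plus strand: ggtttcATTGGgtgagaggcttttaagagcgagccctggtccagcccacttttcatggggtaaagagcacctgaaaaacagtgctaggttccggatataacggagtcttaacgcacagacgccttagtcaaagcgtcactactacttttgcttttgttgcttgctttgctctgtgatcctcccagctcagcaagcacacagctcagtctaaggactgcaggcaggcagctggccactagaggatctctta
Acadl, chr1:66863310-66863559, minus strand: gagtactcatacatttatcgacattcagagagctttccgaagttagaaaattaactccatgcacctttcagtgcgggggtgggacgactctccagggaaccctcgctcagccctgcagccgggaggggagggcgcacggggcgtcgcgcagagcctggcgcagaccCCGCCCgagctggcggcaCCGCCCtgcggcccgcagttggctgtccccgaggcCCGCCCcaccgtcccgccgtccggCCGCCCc
Acads, chr5:115119347-115119596, minus strand: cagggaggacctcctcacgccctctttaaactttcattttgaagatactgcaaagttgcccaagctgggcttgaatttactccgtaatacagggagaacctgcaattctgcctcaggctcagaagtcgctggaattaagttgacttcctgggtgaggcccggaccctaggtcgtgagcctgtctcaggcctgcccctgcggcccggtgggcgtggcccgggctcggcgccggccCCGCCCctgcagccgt
Hadha and Hadhb gap, chr5:30155163-30155247, plus strand: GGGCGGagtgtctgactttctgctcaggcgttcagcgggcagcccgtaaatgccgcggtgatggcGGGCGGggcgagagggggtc

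The stretch before Acot2 holds 1 CCAAT and no GGGCGG, that before Acadl 4 GGGCGG, that before Acads 1, and the 85 bases between Hadha and Hadhb 2. In the RefSeq table, 27 of the 33 genes were found by symbol, with 28 starts, while Decr1, Acaa2, Acat1, Hsd17b4, Acot13 and Crat were not matched. In the 250 bases before the start, GGGCGG occurred in 20 of the 28 (71.4%), in 57.5% of the starts of genes tested and in 32.7% of all starts in the table. CCAAT occurred in 14 of the 28 (50%), in 36.1% of the starts of genes tested and in 33.8% of all starts. AAGGTCA, the core that estrogen-related receptors read, occurred before Acadm only, 3.57% of the 28, against 2.89% of the starts of genes tested and 4.08% of all starts. A perfect direct repeat of AGGTCA with 1 base between the copies, the kind read by PPAR and RXR, occurred in 0 of the 28, in 0.0358% of the starts of genes tested and in 0.0335% of all starts. Both strands were searched for each motif, and AAGGTCA and the repeat share the letters AGGTCA. A match is a description of the letters, not a bound site.

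Long-chain import did not move as a unit. Cpt1a, which encodes the rate-limiting carnitine palmitoyltransferase 1 of liver and leukocytes, was low at 2.93, 3.25, 2.82 and 2.87 TPM with LPS and rose to 4.73, 3.96, 3.76 and 4.02 TPM with UDCA (log2 fold change 0.36, SE 0.091, limma adjusted p = 0.0054). Each UDCA library lay above each LPS library. Slc25a20, the carrier that swaps acylcarnitine for carnitine across the inner membrane, fell instead, from 12.62, 14.16, 14.95 and 13.39 TPM to 9.15, 9.45, 10.08 and 10.81 TPM (log2 fold change -0.44, SE 0.074, limma adjusted p = 0.00047). These groups did not overlap either. Cpt2, which rebuilds acyl-CoA in the matrix, had 12.2, 15.59, 14.41 and 13.69 TPM with LPS and 17.04, 17.61, 14.41 and 15.77 TPM with UDCA and did not pass (log2 fold change 0.20, SE 0.087, limma adjusted p = 0.062). The groups overlapped, and Cpt2 passed when LPS replicate 2 or LPS + UDCA replicate 3 was left out (adjusted p = 0.032 and 0.031 from limma).

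The acyl-CoA dehydrogenases, which take the first step of each cycle and differ in the chain length they accept, did not move in 1 direction. Acadvl, for very long chains, rose from 38.45, 40.23, 37.52 and 37.23 TPM to 54.13, 54.19, 52.6 and 54.25 TPM (log2 fold change 0.48, SE 0.04, limma adjusted p = 4.9e-06). Acadl, for long chains, on chromosome 1 from 66830839 to 66863277, rose from 51.37, 55.61, 54.39 and 56.46 TPM to 82.8, 81.14, 81.66 and 87.57 TPM (log2 fold change 0.60, SE 0.044, limma adjusted p = 2e-06). Both were higher in each UDCA library than in any LPS library. Acadm, for medium chains, had 17.64, 20.3, 15.46 and 16.61 TPM with LPS and 18.65, 18.82, 18.65 and 16.56 TPM with UDCA (log2 fold change 0.06, SE 0.084, limma adjusted p = 0.57). Its groups overlapped, and the sign turned to -0.02 with median-of-ratios scaling and to -0.0029 with quantile normalization. Acads, for short chains, on chromosome 5 from 115110299 to 115119346, fell from 29.57, 30.78, 28.59 and 29.59 TPM to 17.12, 19.93, 17.91 and 17.61 TPM (log2 fold change -0.68, SE 0.057, limma adjusted p = 5e-06), without overlap. With LPS the Acadl level was 1.74 to 1.91 times that of Acads in the same library, and with UDCA 4.07 to 4.97 times.

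The later steps fell, with the exception of an isomerase. Hadha and Hadhb encode the α and β subunits of the mitochondrial trifunctional protein, which carries out the last 3 steps for long chains, and lie head to head on chromosome 5, from 30118304 to 30155162 and from 30155248 to 30184593. Hadha had 69.7, 69.82, 70.42 and 73.47 TPM with LPS and 57.92, 65.97, 56.81 and 59.95 TPM with UDCA (log2 fold change -0.23, SE 0.051, limma adjusted p = 0.0026). Hadhb went from 56.01, 58.58, 55.22 and 59.85 TPM to 33.23, 35.17, 33.05 and 35.87 TPM (log2 fold change -0.73, SE 0.046, limma adjusted p = 9.1e-07). Both subunit genes fell without overlap, and Hadhb by more, the ratio Hadhb to Hadha going from between 0.784 and 0.839 to between 0.533 and 0.598. Of the 31-base words in Hadhb transcripts, 23.3% also occur in other genes, mostly the pseudogenes Gm13910 and Gm9108. Gm13910 shares the most and is not listed under that symbol in the deposited values. Gm9108 was listed at 0 in all 8 libraries.

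For short and medium chains, the hydratase Echs1 had 48.5, 50.7, 50.86 and 50.51 TPM with LPS and 30.47, 33.75, 30.74 and 30.86 TPM with UDCA (log2 fold change -0.66, SE 0.046, limma adjusted p = 1.6e-06). The 3-hydroxyacyl-CoA dehydrogenase Hadh had 11.76, 12.35, 13.34 and 12.47 TPM with LPS and 10.53, 8.61, 9.63 and 8 TPM with UDCA (log2 fold change -0.41, SE 0.086, limma adjusted p = 0.002). Both fell without overlap between the groups. Acaa2, the mitochondrial 3-ketoacyl-CoA thiolase, fell most of all 31 genes, from 14.14, 17.33, 16.59 and 16.48 TPM to 7.47, 7.41, 5.96 and 6 TPM (log2 fold change -1.15, SE 0.095, limma adjusted p = 4.6e-06). The mean fell from 16.1 ± 1.38 to 6.71 ± 0.843 TPM (SD, n = 4), with every UDCA library below every LPS library. Acat1, the acetoacetyl-CoA thiolase that also serves ketone bodies, fell from 104.01, 112.89, 109.98 and 116.41 TPM to 60.88, 61.49, 62.68 and 65.2 TPM (log2 fold change -0.81, SE 0.044, limma adjusted p = 3.4e-07). Unsaturated fatty acids need isomerases, and here Eci2 rose from 21.09, 24.92, 24.71 and 25.09 TPM to 35.83, 39.97, 37.22 and 43.11 TPM (log2 fold change 0.68, SE 0.076, limma adjusted p = 3.4e-05). Eci1, the other isomerase, fell from 27.11, 34.21, 30.71 and 30.46 TPM to 22.89, 25.58, 25.97 and 24.67 TPM with UDCA (log2 fold change -0.29, SE 0.073, limma adjusted p = 0.0055), so both isomerase genes passed in opposite directions. Eci2 shares 13.6% of its 31-base words with other genes.

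**Figure D2:**
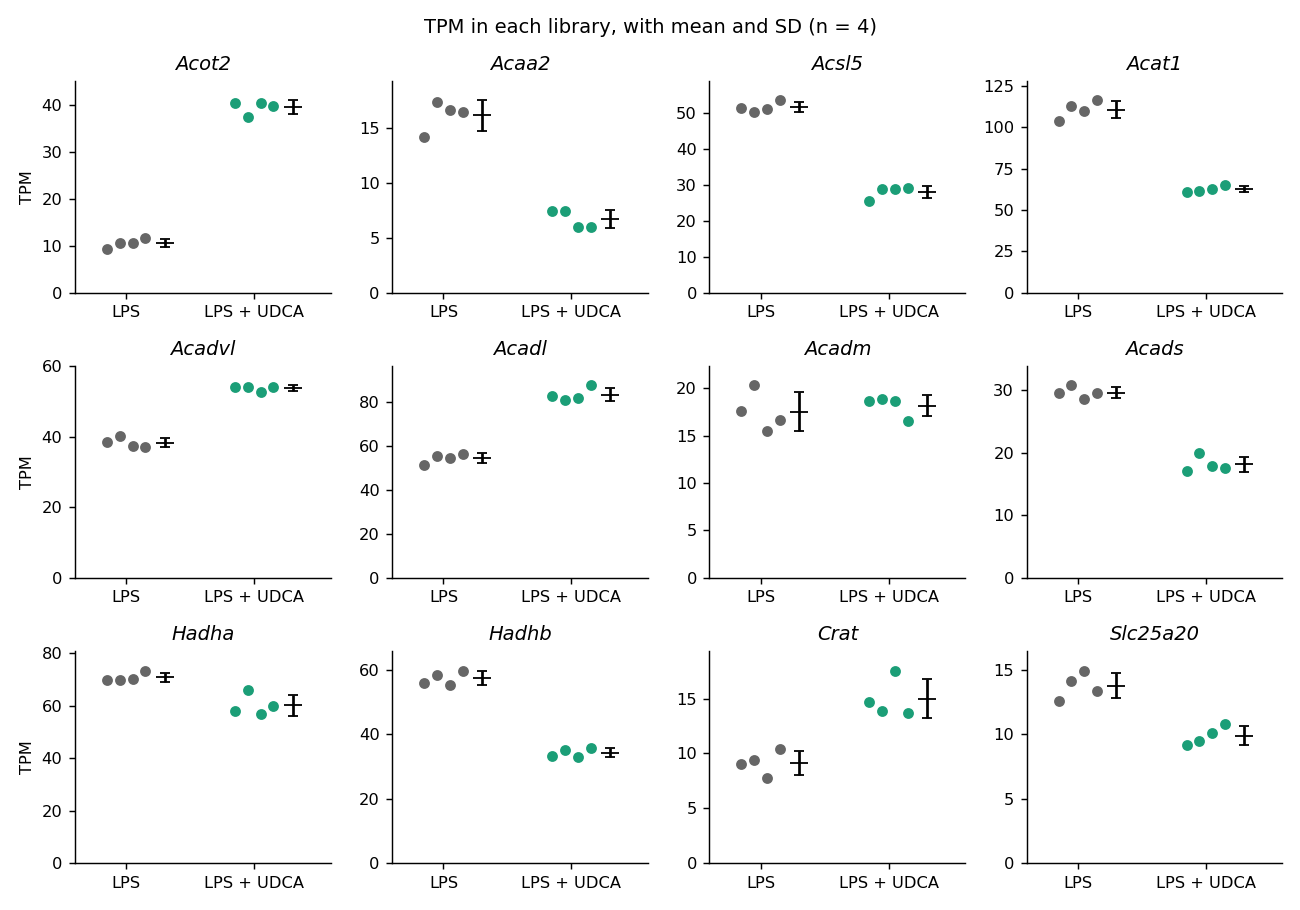
TPM of 12 genes in each library, LPS in grey and LPS + UDCA in green, with the mean and SD of 4 libraries beside the points, and axes that start at 0. Acadvl and Acadl lie higher, Acadm overlaps and Acads lies lower with UDCA.

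The 3 tested members placed with the peroxisomal steps fell, as did 32.3% of all genes tested. Acox3, an oxidase for branched chains, went from 10.95, 7.7, 7.93 and 8.43 TPM to 5.22, 6.24, 5.06 and 4.97 TPM (log2 fold change -0.61, SE 0.12, limma adjusted p = 0.0011). LPS replicate 1 was the highest library of Acox3, and the log2 fold change was -0.50 without it. The peroxisomal thiolase Acaa1a had 73.51, 72.09, 74.57 and 69.71 TPM with LPS and 56.23, 64.15, 54.04 and 50.32 TPM with UDCA (log2 fold change -0.37, SE 0.069, limma adjusted p = 0.001). Acaa1b was the main gene sharing sequence with it, at 18.1% of its 31-base words for all genes together. The multifunctional enzyme Hsd17b4 had 29.21, 30.07, 26.92 and 28.19 TPM with LPS and 22.46, 25.77, 23.37 and 24.1 TPM with UDCA (log2 fold change -0.25, SE 0.057, limma adjusted p = 0.0033). None of these 3 genes overlapped between the groups.

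Among the thioesterases, Acot2 showed the largest change of the 33 genes. Acot2 encodes a mitochondrial thioesterase of long-chain acyl-CoA and lies on chromosome 12 from 83987861 to 83993873 of GRCm38. It had 9.38, 10.6, 10.53 and 11.52 TPM with LPS and 40.42, 37.3, 40.4 and 39.7 TPM with UDCA, 3.75 times as high on average (log2 fold change 1.82, SE 0.065, limma adjusted p = 2.8e-08). The lowest UDCA library was more than 3 times the highest LPS library. Of its 31-base words, 37.3% occur in other genes, mostly the neighbouring paralog Acot1, which stayed at 0.22 to 0.42 TPM with LPS and 0.21 to 0.6 TPM with UDCA. Acot7, a cytosolic thioesterase and the most abundant member, rose from 231.18, 219.56, 221.89 and 220.89 TPM to 267.23, 273.39, 253.31 and 234.41 TPM with UDCA (log2 fold change 0.20, SE 0.049, limma adjusted p = 0.0049), its lowest UDCA library lying just above its highest LPS library. The size of the Acot7 rise moved with the scaling, to a log2 fold change of 0.12 with median-of-ratios scaling (limma adjusted p = 0.048) and 0.28 with quantile normalization. Acot9, a mitochondrial thioesterase, fell from 58.83, 66.04, 66.63 and 66.41 TPM to 46.56, 51.38, 45.61 and 48.81 TPM with UDCA (log2 fold change -0.42, SE 0.056, limma adjusted p = 0.00013). Acot13, also found at mitochondria, fell from 48.52, 58.93, 57.09 and 54.71 TPM to 34.5, 38.92, 37.93 and 35.11 TPM with UDCA (log2 fold change -0.57, SE 0.068, limma adjusted p = 5.7e-05). Both lay lower in each UDCA library than in any LPS library. Of the words of Acot9, 28.4% occur in other genes, mostly Acot10, which was listed at 0 in all libraries.

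Among the acyl-CoA synthetases, which activate long-chain fatty acids, Acsl4 and Acsl5 exchanged their order. Acsl5, on chromosome 19 from 55251938 to 55297720, fell from 51.38, 50.32, 51.23 and 53.64 TPM to 25.47, 28.83, 28.84 and 29.22 TPM (log2 fold change -0.86, SE 0.053, limma adjusted p = 7.4e-07). Acsl4, which prefers arachidonate, rose from 30.25, 24.59, 22.37 and 25.82 TPM to 30.17, 35.15, 32.64 and 33.56 TPM (log2 fold change 0.35, SE 0.089, limma adjusted p = 0.0061), with LPS replicate 1 and LPS + UDCA replicate 1 overlapping. Acsl5 was thus the highest of the 4 synthetases in each LPS library and Acsl4 in each UDCA library. Acsl3, found at the endoplasmic reticulum and lipid droplets, rose from 12.73, 12.83, 12.26 and 14.33 TPM to 17.86, 19.81, 17.97 and 20.16 TPM with UDCA (log2 fold change 0.51, SE 0.067, limma adjusted p = 0.00011) without overlap. Acsl1, a synthetase of the outer mitochondrial membrane and endoplasmic reticulum, had 13.46, 12.41, 12.97 and 14 TPM with LPS and 13.02, 13.76, 16.14 and 12.69 TPM with UDCA and did not pass (log2 fold change 0.06, SE 0.08, limma adjusted p = 0.49). Its groups overlapped, with a sign that turned to -0.01 under median-of-ratios scaling and to -0.03 under quantile normalization.

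The electron transfer flavoprotein, which takes electrons from all acyl-CoA dehydrogenases, was abundant and moved little. Etfa had 117.46, 111.21, 116.87 and 117.79 TPM with LPS and 100.52, 103.8, 108.47 and 114.64 TPM with UDCA (log2 fold change -0.12, SE 0.046, limma adjusted p = 0.045). LPS replicate 2 and LPS + UDCA replicate 4 overlapped, and the log2 fold change of Etfa was -0.20 with median-of-ratios scaling and -0.03 with quantile normalization. The call was lost in 9 of 15 alternatives, with limma adjusted p from 0.064 to 0.53. Leaving out LPS replicate 1, 3 or 4 or LPS + UDCA replicate 1, 2 or 3 was enough to lose it. Etfb had 192.63, 206.43, 216.34 and 197 TPM with LPS and 193.94, 189.52, 187.43 and 162.37 TPM with UDCA (log2 fold change -0.15, SE 0.062, limma adjusted p = 0.053). Its groups overlapped, and it passed in 5 of 15 alternatives, among them those without LPS replicate 1 or LPS + UDCA replicate 1. Of the words of Etfb, 49.9% are shared, mostly with Gm45233, which overlaps it on the same strand. Gm45233 is not listed under that symbol in the deposited values. Etfa shares 10.8% of its words with other genes. Etfdh, the oxidoreductase that hands the electrons to ubiquinone, rose from 19.2, 16.85, 18.72 and 20.28 TPM to 20.73, 22.61, 23.66 and 22.95 TPM (log2 fold change 0.25, SE 0.067, limma adjusted p = 0.008), each UDCA library lying above each LPS library.

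Carnitine acyltransferases for shorter chains also moved apart. Crat, which makes acetylcarnitine, rose from 9.03, 9.45, 7.76 and 10.42 TPM to 14.75, 13.9, 17.58 and 13.72 TPM (log2 fold change 0.65, SE 0.1, limma adjusted p = 0.00032). Crot, the octanoyltransferase of peroxisomes, fell from 4.05, 4.36, 4.06 and 3.96 TPM to 2.79, 2.72, 2.79 and 3.52 TPM (log2 fold change -0.37, SE 0.093, limma adjusted p = 0.0052). Neither gene overlapped between the groups. A gene on the opposite strand overlaps an exon of 11 of the 31 genes, Acadvl, Hadha, Echs1, Eci2, Acox3, Acaa1a, Acsl1, Acsl5, Etfdh, Crat and Crot, and whether the counting used the strand is not given in the sources used here.

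**Figure D3:**
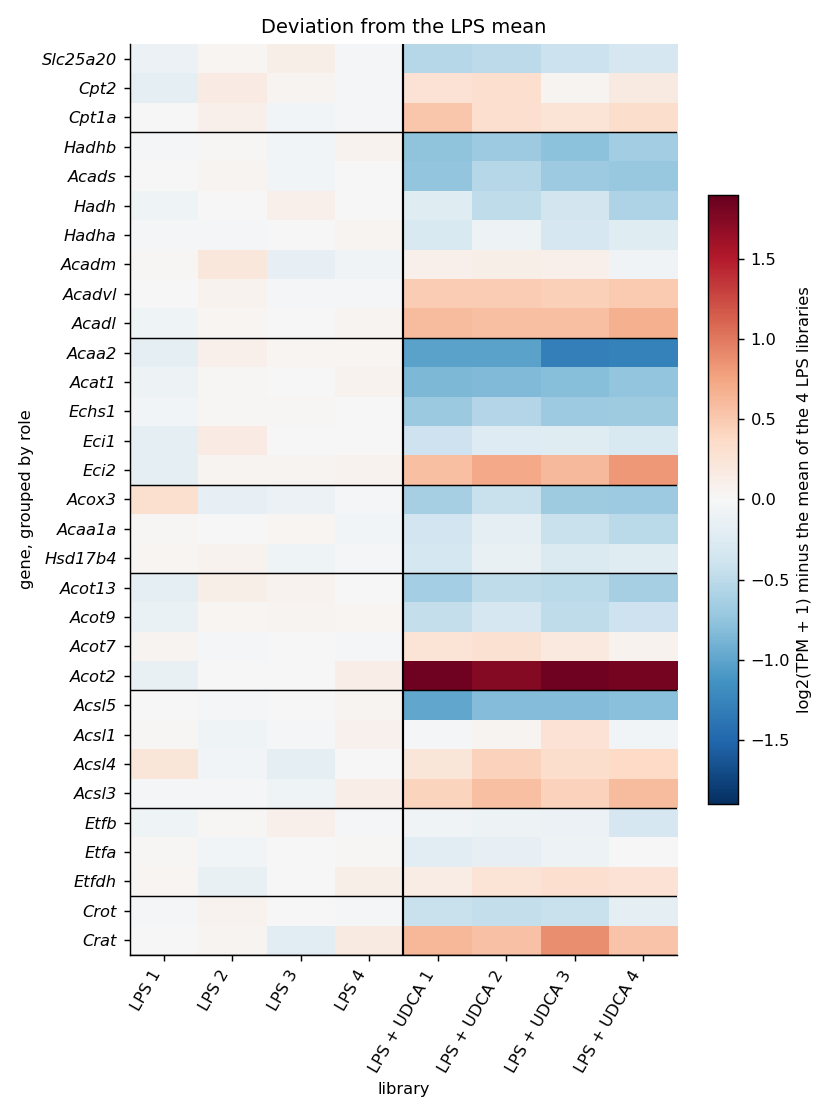
Each row is a gene and each column a library, coloured by log2(TPM + 1) minus the mean of the 4 LPS libraries, red for higher and blue for lower, with lines between roles and between groups. The 4 LPS + UDCA libraries share 1 colour within each of the 25 rows without overlap, and Acot2 has the largest difference, at a log2 fold change of 1.82.

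Ratios of TPM within a library, which do not depend on a common scaling of that library, are given for 5 pairs that share an enzyme or a reaction. The pairs were chosen after their values were seen, so the ratios are a description with no test. Hadhb to Hadha was 0.804, 0.839, 0.784 and 0.815 with LPS and 0.574, 0.533, 0.582 and 0.598 with UDCA. Acadl to Acads was 1.737, 1.807, 1.902 and 1.908 with LPS and 4.836, 4.071, 4.559 and 4.973 with UDCA. Acsl4 to Acsl5 was 0.589, 0.489, 0.437 and 0.481 with LPS and 1.185, 1.219, 1.132 and 1.149 with UDCA. These 3 ratios did not overlap between the groups, and the order of Acsl4 and Acsl5 turned in every UDCA library. Cpt1a to Cpt2 was 0.196 to 0.24 with LPS and 0.225 to 0.278 with UDCA, and Etfb to Etfa was 1.64 to 1.86 and 1.42 to 1.93, so the ranges of both overlapped.

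**Figure D4:**
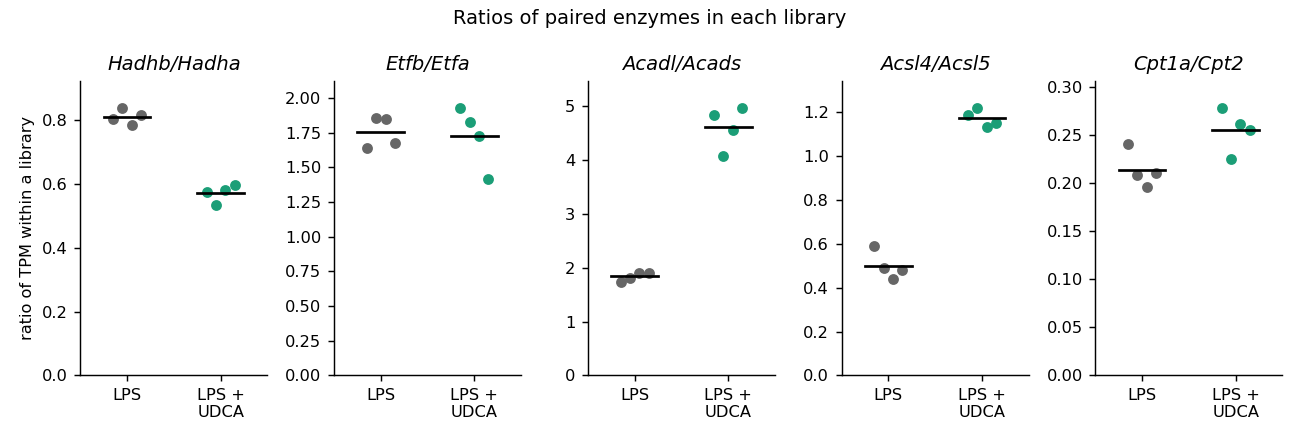
Ratio of TPM of 2 genes in each library, LPS in grey and LPS + UDCA in green, with the mean as a line and axes from 0. The Acadl to Acads ratio is 1.74 to 1.91 with LPS and 4.07 to 4.97 with UDCA, while the Etfb to Etfa ratios overlap.

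Related genes outside the 33 were counted in lists compiled by symbol. In a wider list of fatty acid and branched-chain acyl-CoA oxidation, 11 of 33 tested genes rose and 11 fell, 33.3% each, near the 40.2% and 32.3% of all genes tested (median log2 fold change 0.06). Past 2-fold, Hibch, a hydrolase of valine breakdown, had a log2 fold change of 1.36, Decr2, a peroxisomal dienoyl-CoA reductase, 1.18, Acad10 1.01, and Acat2, a cytosolic thiolase, -1.29. Of 5 other thioesterases tested, 3 rose (60%) and the other 2 did not pass, with Them4 (log2 fold change 1.91) and Acot11 (1.00) past 2-fold. The 3 include Acot6, which reached the filter on low values only through the UDCA libraries (mean 0.527 TPM with LPS, 1.87 TPM with UDCA). Its place in this count therefore depends on its rise. Of 11 other synthetases, fatty acid transporters and acyl-CoA binding proteins tested, 5 rose (45.5%) and 4 fell (36.4%), also near those shares, with Slc27a1, a fatty acid transport protein, at -1.11 and Dbi, the acyl-CoA binding protein, at -1.05. Acad10 and Acot11 lay at the 2-fold limit, with log2 fold changes of 0.92 to 1.14 and 0.91 to 1.2 over the alternatives. Dbi ran from -1.13 to -0.96 and passed 2-fold in 14 of 15 alternatives.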

How the data were processed

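RNA from J774A.1 cells given LPS or LPS + UDCA for 24 h was sequenced in 8 libraries, 4 in each group. The authors deposited a table of TPM, a unit inferred here from column sums that lie close together. The submitters' processing notes name Bowtie 0.12.2 and GRCm38 (mm10), without their roles, and the counting program is not given in the sources used here. Depth cannot be read from TPM, and counting error is not given. Libraries were grouped by their titles.

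A pseudocount of 1 TPM was added, genes whose mean reached 1 TPM were kept, and limma 3.58.1 (lmFit, eBayes with trend) was run in R 4.3.3 over 11796 genes. The thresholds were an FDR under 0.05 and, as in the methods of the study, a fold change of 2. In simulated data of 11796 genes, 200 were given changes larger than 2-fold. Of these 96% passed both thresholds, as did 1 unchanged gene. Smaller changes and calls by FDR alone were not simulated, and far fewer genes were changed than were called in these data. The simulation therefore gives no error rate for most of the calls reported here. Positions are from GENCODE M21 (GRCm38), where all 33 members were found, and words of 31 bases were compared between its transcripts. Python 3.11.15 and matplotlib 3.10.9 drew the figures. Every member was to be accounted for, with full statistics for those past both thresholds and for the 3 highest and 3 lowest of each role, and up to 4 genes past both thresholds in each direction of the other lists. The members and lists were chosen with earlier results of these data known. Alternatives covered pseudocount, filter, normalization, variance trend, replicate block and leaving out each library.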

Additional observations from a re-analysis of the deposited data

Results flagged for a closer look

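A library is named here when it stood apart from the other 3 of its group by Dixon's ratio test at the 95% level. Of 62 groups of values 9 passed, where chance gives about 1 in 20, or 3.1. Genes of the same library are not independent, and the reason for the excess was not tested.

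LPS replicate 1 was the lowest LPS library for Echs1 (48.5 TPM, against 50.51 to 50.86 in the others), Eci2 (21.09 TPM, against 24.71 to 25.09) and Acot9 (58.83 TPM, against 66.04 to 66.63). LPS replicate 2 was lowest for Etfa (111.21 TPM, against 116.87 to 117.79). With UDCA, replicate 4 was lowest for Acadm (16.56 TPM, against 18.65 to 18.82) and highest for Crot (3.52 TPM, against 2.72 to 2.79). Replicate 3 was lowest for Acadvl (52.6 TPM, against 54.13 to 54.25), replicate 2 highest for Echs1 (33.75 TPM, against 30.47 to 30.86) and replicate 1 lowest for Acsl5 (25.47 TPM, against 28.83 to 29.22). Leaving out the library concerned changed no call of Echs1, Eci2, Acot9, Etfa, Acadm, Crot, Acadvl or Acsl5.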

How the results depend on the processing

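Of 463 refits of single members under 15 alternatives, 442 kept their direction and their side of the FDR threshold, 9 lost a call (all Etfa), 7 gained a call (Etfb and Cpt2), and 5 turned the sign of a gene that was not called. The turned values were -0.02 and -0.0029 for Acadm with median-of-ratios scaling and quantile normalization, and -0.01, -0.03 and -0.0049 for Acsl1 with those scalings and without LPS + UDCA replicate 3, the range for Acsl1 with 1 library left out being -0.0049 to 0.10. The numbers of members called stayed within 1.5 times in every alternative, and 2 members, Acot2 and Acaa2, passed 2-fold in each. The median log2 fold change of the members was -0.31 with median-of-ratios scaling, -0.19 with quantile normalization, -0.19 with no filter on low values (which adds Ehhadh), and -0.28 to -0.21 with 1 library left out. The cause of the shifts under scaling was not tested. The pair ratios and the counts of the other lists were recomputed under the same alternatives, an addition made after seeing the data. Over all genes tested the median was 0.082 as deposited and 0.010 with median-of-ratios scaling. With the replicate number as a block, 28 members were called instead of 27 (Etfb was added), and no other call changed. The numbers were not taken to pair the libraries, and whether they do cannot be told from these values. The deviations of same-numbered libraries correlated by -0.035 to 0.15 (mean 0.089). Those of differently numbered libraries correlated by -0.14 to 0.16 (mean -0.029). TPM gives no depth, so values under about 1 TPM, such as Ehhadh, support no statement.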

Other observations

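Other lists of lipid and mitochondrial genes, compiled by symbol, are given by counts of limma calls beside the 40.2% of all genes that rose and the 32.3% that fell. Among genes of peroxisome transport and biogenesis, 12 of 21 tested rose and 4 fell (median log2 fold change 0.33). Catalase (Cat), which removes the hydrogen peroxide made by peroxisomal oxidases, rose from 40.8 ± 2.36 to 130 ± 3.11 TPM (SD, n = 4), and the peroxin Pex13 from 3.76 ± 0.469 to 11.9 ± 0.468 TPM, while the peroxin Pex10 fell from 17.4 ± 1.9 to 7.08 ± 1.40 TPM. Of 6 ketone body genes tested, 1 rose and 4 fell, among them Oxct1, which activates acetoacetate for use as fuel (68.2 ± 5.78 to 26.4 ± 3.11 TPM), and the hydroxybutyrate dehydrogenase Bdh1 (12.2 ± 2.21 to 4.62 ± 1.1 TPM). Of 21 TCA cycle genes, 3 rose and 14 fell (median -0.28), and of 21 tested genes of fatty acid synthesis 6 rose and 9 fell (median -0.17), with Me1 at a log2 fold change of 1.03 and Fasn at -1.06. Of 14 tested genes of lipid droplets and lipolysis, 5 rose and 4 fell, and the triglyceride synthase Dgat2 rose from 2.76 ± 0.214 to 12.8 ± 1.75 TPM and Lpin1 by a log2 fold change of 1.00. Lpin1 lay at the 2-fold limit, with log2 fold changes of 0.93 to 1.06 over the alternatives. Me1 ran from 0.95 to 1.06 and Fasn from -1.13 to -0.99, each past 2-fold in 14 of 15 alternatives.

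Among regulators and targets of the PPAR family, 7 of 22 tested genes rose and 10 fell. These counts include Rxra, with a mean of 0.725 TPM with LPS, and Ppargc1b and Fabp4, with means of 0.412 and 0.59 TPM with UDCA. Rxra, Ppargc1b and Fabp4 reached the filter on low values only through the group where they were higher. Ppara, Ppargc1a and Pdk4 were listed at 0 in all 8 libraries, and Pparg reached at most 0.11 TPM. Ppargc1b, a coactivator of mitochondrial genes, was listed at 3.22 ± 0.609 TPM with LPS and 0.412 ± 0.0492 TPM with UDCA. Its log2 fold change ran from -2.68 to -1.48 over the alternatives. The UDCA values lie under 1 TPM, so the size of this fall cannot be read. Esrra, which encodes an estrogen-related receptor, fell from 44.4 ± 4.22 to 23.1 ± 2.71 TPM. The fatty acid binding protein genes Fabp4 and Fabp5 had log2 fold changes of -4.76 and -3.57, and Sirt1 and Nr1h3, which encodes LXRα, had 1.21 and 1.05. Over the alternatives Nr1h3 ranged from 0.95 to 1.15, so it did not pass 2-fold in each. Esrra and the genes listed at or near 0 were named after their values were seen.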
